A study of Mus musculus with 18 samples.

Results

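The response of Neuro-2A cells to a mix of 3 microRNA mimics was described in 6 of the 18 libraries of the series, all those labelled as Neuro-2A. In 3 of them the cells had received mimics of miR-99b-3p, miR-140-5p and miR-199a-3p, mixed in equal amounts, and in the other 3 the control mimic cel-miR-67. Both arms were transfected with Dharmafect 1, a lipid reagent, at 25 nM mimic for 24 h, and the cells carried no genetic modification according to the labels. Neuro-2A is an established mouse neuroblastoma line. The control mimic is a nematode microRNA that is widely used in mammalian cells, so the control arm also held a transfected small RNA with a seed of its own. The remaining 12 libraries, from primary astrocyte cultures and the microglial line BV-2 with the same 2 mimic treatments, were used only where the size of the response was compared between cell types. The 3 libraries of each arm carry the labels No3, No4 and No5, called replicates 1, 2 and 3 here. The labels do not say whether these came from separate cultures, so p-values only reflect how far these libraries varied, and that variation may be technical.

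A microRNA mimic is a short double-stranded RNA, one strand of which is loaded into an Argonaute protein. The loaded strand pairs through its seed, bases 2 to 8, with complementary sites that lie mostly in the 3′ untranslated region (UTR) of messenger RNAs, and the paired transcripts are deadenylated and decay. Transcripts with a seed match are therefore the direct candidates for a fall, while genes without one can move downstream of them or for other reasons. Neuroblastoma cells are derived from the sympathoadrenal lineage of the neural crest: they express neuronal cytoskeletal and secretory genes while they divide.

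The mature sequences of 2 of the 3 microRNAs are shown, because their seeds define the sites examined next; capitals mark the seed, and the sequences are those of RefSeq for GRCm38.p6.
miR-199a-3p: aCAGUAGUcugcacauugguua
miR-99b-3p: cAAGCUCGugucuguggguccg
For 6 transcripts that fell, the site in the 3′ UTR is shown with up to 10 bases on either side; capitals mark the bases that pair with the seed and the A that follows them (together an 8mer site), read on the transcript strand in mm10. The first 2 are sites for miR-199a-3p, the next 2 for miR-99b-3p, and in the last 2 the capitals begin with the seed match of miR-140-5p.
Tmsb4x, chrX:167207336-167207363, minus strand: aagaatcagaACTACTGAgcaggaaggc
Cnih2, chr19:5092868-5092895, minus strand: atatgaataaACTACTGAaaacacacaa
Aldh6a1, chr12:84432172-84432199, minus strand: gcctagaattCGAGCTTAgaactgtctt
Pxdn, chr12:30015571-30015594, plus strand: tgttccCGAGCTTAgctcctcgaa
Mmd, chr11:90278501-90278528, plus strand: gcactgtcaaAACCACTAaactgtattt
Dync1li2, chr8:104419100-104419127, minus strand: agatttgactAACCACTAatgtagttgc
These genes had exactly one 8mer of the microRNA named and no full seed match of the other two.

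Levels are given as TPM, a read count scaled by transcript length and library total, which is the inverse log2 of the deposited values, in the order of replicates 1, 2 and 3. Tmsb4x, which encodes the actin-sequestering peptide thymosin beta 4, stood at 81.2, 75.3 and 89.6 TPM with the mix and at 182, 152 and 174 TPM with the control mimic. Cnih2, an auxiliary subunit of AMPA receptors, stood at 2.79, 2.43 and 3.21 TPM with the mix and at 6.22, 5.51 and 5.56 TPM with the control mimic. Both were lower in every mix library than in any control library, with log2 fold changes of −1.03 for Tmsb4x and −1.01 for Cnih2. Mmd, a membrane protein of the progestin and adipoQ receptor family, stood at 23.5, 28.1 and 26.01 TPM with the mix and at 62.8, 64.7 and 66.2 TPM with the control mimic. Dync1li2, a light intermediate chain of cytoplasmic dynein, fell by 0.87 on the log2 scale, to 48.2, 46.8 and 43.8 TPM with the mix, against 89.8, 85.2 and 81.8 TPM with the control mimic. The miR-99b-3p sites went with smaller values: Pxdn, the collagen crosslinking enzyme peroxidasin, had a log2 fold change of −0.24, with 94.9, 86.5 and 93.7 TPM in mix libraries and 115, 107 and 108 TPM in control libraries. Aldh6a1, a mitochondrial enzyme of valine breakdown, changed by −0.46 on the log2 scale, but its arms overlapped between replicates, at 4.12, 6.35 and 6.26 TPM with the mix and at 6.09, 9.39 and 7.75 TPM with the control mimic. The adjusted p of Aldh6a1 in edgeR was 0.00033 with the replicate number as a block and 0.199 without it.

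Summed gene counts were 22.6, 23.6 and 22.4 M per library with the mix and 22.3, 21.6 and 20.9 M with the control mimic. Tubb3 and Gap43, neuronal marker genes, were both abundant in all 6 libraries, whereas 9 of 12 astrocyte markers, 10 of 13 table entries for microglia and macrophage markers, 7 of 11 oligodendrocyte markers, 7 of 10 Schwann and neural crest markers and 5 of 10 endothelial markers stood at 1 TPM or less in all 6. The first principal component of expression held 39% of the variance and separated the arms, and the second held 35.7% and separated replicate 1 from replicates 2 and 3 in both arms. The replicate number was therefore used as a block. Every gene with enough counts was tested with edgeR's quasi-likelihood test, mix against control mimic, and called at a Benjamini-Hochberg adjusted p under 0.05; log2 fold changes below are mix over control from that fit, ± their standard error.

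Of 16160 genes tested, 3152 were lower with the mix (19.5%) and 2949 were higher (18.2%). Most of these differences were small, with a median absolute log2 fold change of 0.26 over the 6101 called genes, and 6052 of them (99.2%) moved the same way in all 3 pairs. The genes were called from these same 3 pairs, so that share follows largely from the calling and is not a separate check. Without the block 1273 genes were lower (7.88%) and 810 higher (5.01%), all of which were also called with it. Differences of 1.5-fold or more were found for 466 lower genes (2.88%) and 235 higher genes (1.45%). The arms did not overlap in 4381 of the called genes (71.8%), so a complete separation, given for several named genes, was common among called genes. It does not set those genes apart, and its share over all tested genes was not counted. Without replicate 1, 3050 were lower (18.9%) and 2892 higher (17.9%), and 5256 calls kept their direction. Because so many genes were called, every gene list below is read against 19.5% lower and 18.2% higher, and its count is also given without the block and without replicate 1. Counts without the block are read against 7.88% and 5.01%, and those without replicate 1 against 18.9% and 17.9%. The median log2 fold change of all tested genes was 0.01.

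Without using the microRNA sequences, all 15775 heptamers present in at least 100 of 12584 annotated 3′ UTRs of tested genes were ranked by the mean log2 fold change of the genes that hold them. Among the 8426 heptamers found in at least 1000 UTRs, ACTACTG was the lowest, with a mean of −0.18 over 1044 genes (8.30% of UTRs), and it pairs with the seed of miR-199a-3p. The next was AACCACT, with −0.15 over 1358 genes (10.8% of UTRs), which pairs with the seed of miR-140-5p. The third, CTACTGA, is the same miR-199a-3p site shifted by one base, so it overlaps the first. At the other end stood GGTTGTG, with a mean of 0.07 over 1398 genes (11.1% of UTRs), which pairs with the seed of the control mimic. The heptamer of miR-99b-3p, CGAGCTT, holds a CpG and occurred in only 266 UTRs (2.11%); it was the 9th lowest of all 15775, with a mean of −0.13. Rarer heptamers that are no seed match of these mimics lay lower still, such as TCTTCGC (−0.15, 195 genes) and AGTACCG (−0.14, 148 genes). The 9th rank alone therefore does not set the miR-99b-3p heptamer apart. The median of these means over all heptamers was −0.05. Replicate pair by replicate pair, ACTACTG was the lowest of all in each of the 3, AACCACT was the 4th, 8th and 3rd lowest, CGAGCTT was the 24th, 7th and 25th lowest, and GGTTGTG was the 24th, the 1st and the 2nd highest. Only the transcript strand was searched.

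**Figure D1:**
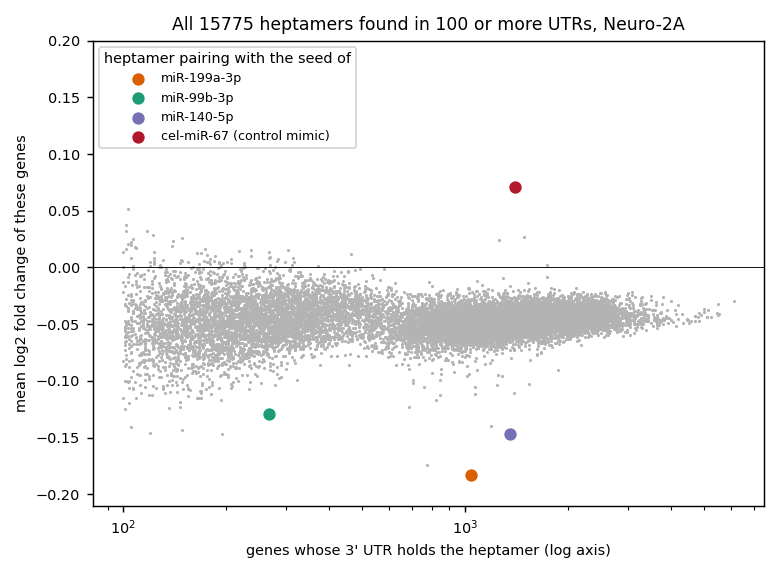
Each grey point is 1 of the 15775 heptamers present in 100 or more 3′ UTRs. The horizontal axis (log scale) gives the number of genes whose UTR holds it, and the vertical axis the mean log2 fold change of those genes, mix over control, in Neuro-2A. The matches of the 3 mix microRNAs lie at −0.18, −0.13 and −0.15 and that of the control mimic at 0.07.

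The differences were graded by the type and number of the sites. AACCACT and GGTTGTG were picked by ranking these same fold changes, so the direction of their shifts here was given by that choice. Site types of 1 microRNA were read in genes with no site of the other 3, where a site also includes the shorter match of bases 2 to 7 followed by an A (7mer-A1). Genes with an 8mer of miR-199a-3p had a median log2 fold change of −0.22 ± 0.01 (SD over 3 replicate pairs, 147 genes), and 59.2% of them were called lower against 8.84% called higher. Sites with the heptamer but without the flanking A (7mer-m8) had a median of −0.11 ± 0.0019 over 342 genes. For AACCACT the 8mer median was −0.24 ± 0.03 over 108 genes, with 54.6% called lower, and the 7mer-m8 median was −0.12 ± 0.01 over 504 genes. For miR-99b-3p only 12 genes had an 8mer alone, with a median of −0.17 ± 0.04, and 100 genes with a 7mer-m8 had a median of −0.04 ± 0.01. Counting full heptamer matches of the mix in genes with no site of the control mimic, 1335 genes with 1 match had a median of −0.12, 249 genes with 2 had −0.24 and 48 genes with 3 or more had −0.46, and the called-lower share stood at 44.0%, 61.5% and 72.9%. Genes with a match of the control mimic lay on the other side: the 8mer median was 0.15 ± 0.03 over 239 genes, of which 47.7% were called higher and 9.21% lower. Genes with a full match of the mix and one of the control mimic had a median of −0.02 over 444 genes, with 31.1% called lower and 23.7% higher. Since the fold change is mix over control, a transcript lowered by the control mimic would appear here as higher with the mix, and no untransfected library was used to separate these. Genes with no site of any kind, 7mer-A1 included, had a median of 0.03 over 7705 genes, but their UTRs were shorter, with a median of 722 nucleotides against 1887 for genes with 1 match. Within these genes without a site the median ran from 0.06 for UTRs of 20 to 500 nucleotides to −0.02 for those of 2000 or more.

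**Figure D2:**
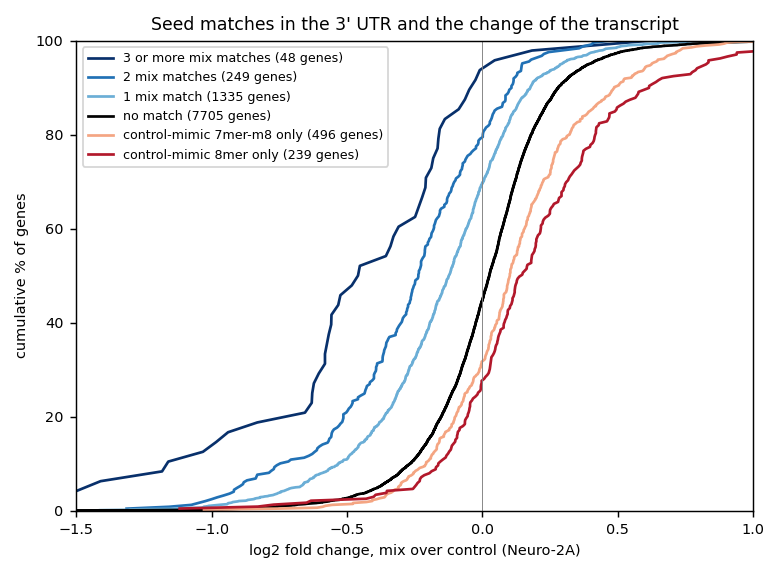
Cumulative percentage of genes (vertical axis) by log2 fold change, mix over control (horizontal axis), for genes grouped by full seed matches in the 3′ UTR; genes with no match also lack 7mer-A1 sites. Curves shift to the left with 1, 2 and 3 or more matches of the mix microRNAs, in genes with no control-mimic site, with medians of −0.12, −0.24 and −0.46, and to the right with control-mimic matches, with a median of 0.15 for the 8mer.

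Full matches of the mix were found in 18.7% of all tested genes with a UTR, in 35.9% of the genes called lower and in 53.7% of those lower by 1.5-fold or more. Control-mimic matches were found in 11.1% of all, in 18.2% of those called higher and in 36.9% of those higher by 1.5-fold or more. Match counts of the gene lists below are read against 35.9% of all lower and 18.2% of all higher genes. Among the largest falls outside the microRNA examples above were Mgll, the monoacylglycerol lipase that degrades an endocannabinoid, with a log2 fold change of −1.5 ± 0.10, and Myo10, an unconventional myosin of filopodia, with −1.24 ± 0.08. Mgll stood at 2.81, 1.23 and 1.498 TPM with the mix and at 7.71, 4.08 and 4.06 TPM with the control mimic. Among the 10 largest rises, 8 genes carry an 8mer of the control mimic, a count that likewise depends on the heptamer ranking. They include Pgam5, a mitochondrial phosphatase, at 88.7, 89.2 and 95.6 TPM with the mix and 43.6, 41.9 and 45.2 TPM with the control mimic, and Canx, the endoplasmic reticulum chaperone calnexin, with a log2 fold change of 0.94.

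Genes of the neuronal cytoskeleton and growth cone showed more falls, relative to their number, than any other programme listed, the marker lists of other cell types left aside. Of 24 tested, 15 were lower and 3 higher (8 and 1 without the block, 14 and 2 without replicate 1), with a list median of −0.20 ± 0.07 on the log2 scale (SD over 3 pairs). Tubb3 (ENSMUSG00000062380, chr8:123411424-123422015, plus strand, mm10) encodes the neuronal beta-tubulin class III. It stood at 471, 415 and 461 TPM with the mix and at 751, 571 and 585 TPM with the control mimic, a log2 fold change of −0.47 ± 0.05 (edgeR adjusted p = 3.92e-06). Map1b (ENSMUSG00000052727, chr13:99421446-99516540, minus strand, mm10), a microtubule-associated protein of growing axons, stood at 486, 571 and 550 TPM with the mix and at 719, 785 and 759 TPM with the control mimic, a log2 fold change of −0.48 ± 0.03 (edgeR adjusted p = 2.62e-08). For both genes every mix library lay below every control library. The dendritic relative Map1a, the beta-tubulin Tubb2b and Prph, the peripheral-neuron intermediate filament, also fell, with log2 fold changes of −0.43, −0.42 and −0.30. Prph was the most abundant member, at 1419, 1746 and 1639 TPM with the mix and 1794, 2161 and 2013 TPM with the control mimic, and lost its call without the block (edgeR adjusted p = 0.0831). The programme did not move as one. Gap43, the growth-cone phosphoprotein, stood at 248, 194 and 192 TPM with the mix and 277, 201 and 201 TPM with the control mimic, and was not called (log2 fold change −0.08 ± 0.04, edgeR adjusted p = 0.121). The tubulin-destabilising stathmin Stmn3 was higher in all 3 mix libraries, with a log2 fold change of 0.17. Of the 15 lower genes 4 have a mix match, Map1b among them, against 35.9% of all lower genes. Tubb3, Map1a, Tubb2b and Prph have none.

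**Figure D3:**
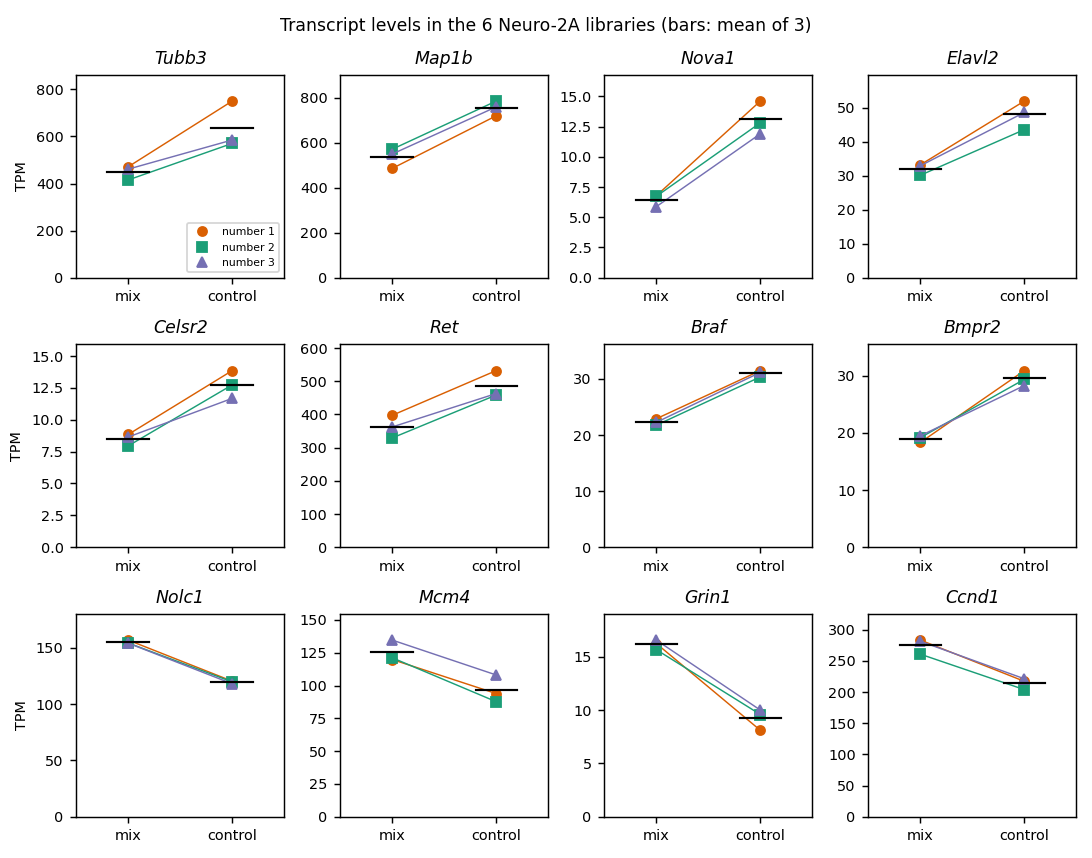
TPM (vertical axes, each starting at 0) of 12 genes in the 3 mix libraries, left, and the 3 control-mimic libraries, right. Lines join libraries of the same replicate number and bars are means of 3. The first 8 genes lie lower in every mix library, such as Map1b at 486 to 571 against 719 to 785 TPM, and Nolc1, Mcm4, Grin1 and Ccnd1 lie higher, such as Ccnd1 at 261 to 284 against 204 to 221 TPM.

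Several RNA-binding proteins and transcription factors that mark neurons fell, in a list that held changes in both directions. Of 23 tested, 10 were lower and 6 higher (5 and 1 without the block, 10 and 5 without replicate 1). A mix match is present in 6 of the 10 lower genes, against 35.9% of all lower genes. Nova1 (ENSMUSG00000021047, chr12:46694517-46818929, minus strand, mm10), a neuronal splicing regulator, stood at 6.79, 6.73 and 5.88 TPM with the mix and at 14.6, 12.8 and 11.9 TPM with the control mimic, a log2 fold change of −1.0 ± 0.05 (edgeR adjusted p = 1.94e-08). Its paralogue Nova2 stood at 21.7, 21.1 and 21.99 TPM with the mix and 35.7, 32.5 and 30.3 TPM with the control mimic. Elavl2, a neuronal member of the Hu family that stabilises AU-rich messenger RNAs, stood at 33.2, 30.1 and 32.9 TPM with the mix and at 52.0, 43.6 and 48.6 TPM with the control mimic. These 3 RNA-binding factors were lower in every mix library than in any control library, and each has a mix match in its UTR. Sox4, a transcription factor of immature neurons, fell by 0.56 on the log2 scale and has 2 mix matches. In the other direction, Rcor1, the CoREST subunit that represses neuronal genes with REST in non-neuronal cells, was higher at 42.2, 44.5 and 48.6 TPM with the mix, against 26.5, 32.3 and 33.6 TPM with the control mimic. Rcor1 has a control-mimic match.

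Of 24 tested genes of sympathoadrenal and neuroblastoma identity, 11 were lower and 4 higher (2 and 1 without the block, 11 and 4 without replicate 1), with a median of −0.11 ± 0.03. Without the block these counts lay near the shares over all genes, 7.88% lower and 5.01% higher. Ret (ENSMUSG00000030110, chr6:118151745-118197718, minus strand, mm10), the receptor tyrosine kinase for ligands of the GDNF family, stood at 398, 329 and 362 TPM with the mix and at 532, 459 and 463 TPM with the control mimic, a log2 fold change of −0.40 ± 0.03 (edgeR adjusted p = 3.53e-07). Scg3, a granin-family protein of secretory granules, stood at 182, 192 and 214 TPM with the mix and at 261, 285 and 286 TPM with the control mimic. Gata2, a lineage transcription factor, rose by a log2 fold change of 0.29. Chgb, chromogranin B, was not called, at 892, 804 and 784 TPM with the mix and 958, 848 and 801 TPM with the control mimic. Ret and Scg3 separated the arms completely, and Chgb overlapped. Neither Ret nor Scg3 has a mix match. Of 16 neurotrophic ligands and receptors 6 were lower and 3 higher (2 and 1 without the block, 7 and 3 without replicate 1). Sort1, the proneurotrophin receptor sortilin, with 2 mix matches, fell by 0.44 on the log2 scale. Ltk, a receptor tyrosine kinase related to ALK, rose to 9.39, 11.1 and 10.8 TPM with the mix, against 4.39, 6.52 and 7.09 TPM with the control mimic.

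Axon guidance genes were lower in 15 and higher in 5 of 41 cases (5 and 1 without the block, 14 and 6 without replicate 1). Plxna4, a semaphorin receptor, stood at 21.2, 14.5 and 15.5 TPM with the mix and at 37.0, 23.3 and 23.1 TPM with the control mimic. The log2 differences of Plxna4 in the 3 replicate pairs were −0.77, −0.66 and −0.56, but replicate 1 was higher than the others in both arms, and the call was lost without the block (edgeR adjusted p = 0.0742). The semaphorin Sema6d and the Robo ligand Slit3 fell, with log2 fold changes of −0.36 and −0.28. Only 1 of the 15 lower genes of this list has a mix match, against 35.9% of all lower genes.

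Synaptic genes moved in both directions. For the synaptic vesicle and its release machinery 12 of 35 were lower and 6 higher (4 and 3 without the block, 13 and 6 without replicate 1), and for postsynaptic receptors and scaffolds 11 of 34 were lower and 5 higher (3 and 2 without the block, 13 and 4 without replicate 1). Syt11, a synaptotagmin of vesicle traffic, stood at 49.4, 59.6 and 61.5 TPM with the mix and at 88.4, 99.8 and 98.1 TPM with the control mimic, a log2 fold change of −0.73 ± 0.04 (edgeR adjusted p = 1.28e-08). Cplx2, a complexin that clamps and promotes release, and Syt1, the calcium sensor of fast release, fell, with log2 fold changes of −0.41 and −0.25. Nsf, the ATPase that takes SNARE complexes apart, rose to 38.7, 36.9 and 38.9 TPM with the mix, against 27.6, 29.1 and 29.8 TPM with the control mimic. The vesicle proteins Syp and Vamp2 were higher by 0.27 and 0.32 on the log2 scale. On the postsynaptic side Grin1 (ENSMUSG00000026959, chr2:25291181-25319187, minus strand, mm10), the obligatory NMDA receptor subunit, stood at 16.3, 15.7 and 16.6 TPM with the mix and at 8.11, 9.60 and 10.0 TPM with the control mimic, while Camk2a, the alpha subunit of the postsynaptic calcium kinase, fell by 0.43. Nlgn2, the neuroligin of inhibitory synapses, fell by 0.33 on the log2 scale. None of the 6 higher vesicle genes has a control-mimic match, against 18.2% of all higher genes, and Grin1 has none either.

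Ion channels of excitable cells were lower in 13 and higher in 4 of 31 cases (6 and 1 without the block, 11 and 4 without replicate 1), with a median of −0.16 ± 0.06. Kcnn3, a calcium-activated potassium channel, stood at 3.31, 2.25 and 2.13 TPM with the mix and at 7.06, 3.91 and 4.26 TPM with the control mimic. Scn3a, a voltage-gated sodium channel of developing neurons, stood at 2.37, 2.07 and 2.05 TPM with the mix and at 4.26, 3.35 and 3.65 TPM with the control mimic. Both were low in absolute terms and yet separated the arms completely. The T-type calcium channel Cacna1g fell by 0.49 on the log2 scale.

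Adhesion genes fell in several families. Among cadherins and neural adhesion molecules 11 of 25 were lower and 1 higher (4 and 0 without the block, 11 and 1 without replicate 1), with a median of −0.14 ± 0.04. Celsr2 (ENSMUSG00000068740, chr3:108390851-108415552, minus strand, mm10), an atypical cadherin of planar cell polarity with 2 mix matches, stood at 8.85, 7.95 and 8.65 TPM with the mix and at 13.9, 12.7 and 11.7 TPM with the control mimic. Ctnnd1, the p120 catenin that stabilises cadherins at the membrane, stood at 16.0, 16.3 and 17.1 TPM with the mix and at 23.5, 22.7 and 23.6 TPM with the control mimic. The immunoglobulin-type adhesion molecules Nectin2 and Nectin3 fell, with log2 fold changes of −0.54 and −0.55. Among integrins and tetraspanins 13 of 28 were lower and 3 higher (5 and 1 without the block, 14 and 3 without replicate 1). Tspan2, a tetraspanin, stood at 32.1, 35.2 and 37.8 TPM with the mix and at 63.8, 59.6 and 63.9 TPM with the control mimic, and Itga6, the laminin receptor alpha subunit, fell by 0.55 on the log2 scale. Neither Tspan2 nor Itga6 has a mix match.

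Genes that regulate actin moved in both directions. Cfl1, the actin-severing protein cofilin, stood at 451, 445 and 475 TPM with the mix and at 717, 621 and 658 TPM with the control mimic, a log2 fold change of −0.52 ± 0.04 (edgeR adjusted p = 2.4e-07). Limk1, the kinase that inactivates cofilin, stood at 33.7, 44.6 and 43.8 TPM with the mix and at 54.2, 65.6 and 60.9 TPM with the control mimic. Rac1, the GTPase upstream of this kinase through PAK, fell by 0.40 on the log2 scale and has 1 mix match. A kinase and its substrate both stood lower, as did the GTPase above them. Wasf2, a WAVE subunit that activates Arp2/3, rose to 95.9, 93.1 and 101 TPM with the mix, against 68.4, 65.5 and 74.2 TPM with the control mimic, and has 2 control-mimic matches.

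Growth-factor signalling genes were more often lower than higher. Among receptor tyrosine kinases and the RAS-MAPK cascade 21 of 47 were lower and 5 higher (9 and 2 without the block, 20 and 8 without replicate 1). A mix match is present in 10 of the 21, against 35.9% of all lower genes. Braf (ENSMUSG00000002413, chr6:39603237-39725463, minus strand, mm10), the RAF kinase, stood at 22.9, 21.8 and 22.3 TPM with the mix and at 31.5, 30.4 and 31.2 TPM with the control mimic, a log2 fold change of −0.46 ± 0.03 (edgeR adjusted p = 3.07e-07), and has 1 mix match. Sos2, a RAS guanine nucleotide exchange factor, stood at 22.1, 22.9 and 23.2 TPM with the mix and at 35.3, 38.1 and 35.2 TPM with the control mimic. The mix and control levels of Braf and Sos2 each varied by little within an arm and did not overlap. The receptors Ddr1, Egfr and Axl fell, with log2 fold changes of −0.37, −0.59 and −0.66, and the feedback inhibitor Spry1 rose, with a log2 fold change of 0.28. Immediate early genes and ERK feedback inhibitors did not follow the same direction: 6 of 35 were lower and 10 higher (3 and 2 without the block, 7 and 10 without replicate 1).

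In the insulin, PI3K and AKT pathway 14 of 32 were lower and 4 higher (5 and 1 without the block, 12 and 4 without replicate 1). Gsk3b, the kinase inhibited by AKT that also belongs to the WNT pathway, has 3 mix matches and stood at 41.4, 54.8 and 52.0 TPM with the mix and at 68.0, 82.7 and 76.8 TPM with the control mimic. Pik3r3, a regulatory subunit of PI3K, and Foxo4, a transcription factor restrained by AKT, fell, with log2 fold changes of −0.55 and −0.49. The mTOR complexes and amino acid sensors were split, with 16 of 53 lower and 14 higher (7 and 1 without the block, 17 and 11 without replicate 1). Ddit4, a stress-induced mTOR inhibitor, stood at 460, 378 and 364 TPM with the mix and at 536, 553 and 521 TPM with the control mimic, and Rictor, the subunit that defines mTOR complex 2, rose by 0.28 on the log2 scale.

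Genes of growth and division were more often higher than lower. Ribosome biogenesis had 39 of 61 higher and 1 lower (10 and 0 without the block, 39 and 1 without replicate 1), with a median of 0.14 ± 0.03. Nolc1 (ENSMUSG00000015176, chr19:46075863-46085530, plus strand, mm10), a nucleolar phosphoprotein that chaperones small nucleolar ribonucleoproteins, stood at 157, 154 and 154 TPM with the mix and at 120, 120 and 118 TPM with the control mimic, a log2 fold change of 0.40 ± 0.03 (edgeR adjusted p = 5.47e-07). Wdr43, a subunit of the small-subunit processome, stood at 164, 173 and 169 TPM with the mix and at 124, 121 and 130 TPM with the control mimic. Rrp12 and Nop58, factors of ribosomal subunit maturation and of box C/D small nucleolar ribonucleoproteins, rose by 0.33 and 0.32 on the log2 scale. Only 2 of the 39 higher genes hold a control-mimic match (Wdr43 and Nop58), against 18.2% of all higher genes. The member that fell, Imp4, another processome subunit, had a log2 fold change of −0.14 and lost its call without the block (edgeR adjusted p = 0.158).

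DNA replication genes were higher in 25 and lower in 3 of 48 cases (10 and 2 without the block, 26 and 3 without replicate 1), with a median of 0.13 ± 0.02. Mcm4 (ENSMUSG00000022673, chr16:15623897-15637400, minus strand, mm10), a subunit of the replicative helicase, stood at 120, 121 and 135 TPM with the mix and at 93.8, 87.6 and 108 TPM with the control mimic. Mcm2 and Mcm3, 2 further helicase subunits, and Rpa1, the largest subunit of the single-strand binding protein, rose by 0.30, 0.30 and 0.34 on the log2 scale. The smallest subunit of the same complex, Rpa3, went the other way, at 88.1, 82.1 and 88.9 TPM with the mix and at 127, 106 and 115 TPM with the control mimic. Cdt1, the licensing factor that loads the helicase, fell by 0.28 on the log2 scale and has 1 mix match. G1 cyclins, their kinases and inhibitors and the E2F family had 17 of 41 higher and 6 lower (5 and 4 without the block, 18 and 6 without replicate 1). Ccnd1, cyclin D1, stood at 284, 261 and 282 TPM with the mix and at 217, 204 and 221 TPM with the control mimic. The E2F transcription factor E2f2 and its partner Tfdp1 rose by 0.45 and 0.35, while Foxm1, a transcription factor of the G2 phase, and the retinoblastoma gene Rb1 fell, with log2 fold changes of −0.39 and −0.43. Mitosis and cytokinesis genes had 16 of 49 higher and 8 lower (4 and 2 without the block, 18 and 5 without replicate 1). Ccnb1, cyclin B1, stood at 146, 141 and 150 TPM with the mix and at 87.6, 84.1 and 95.5 TPM with the control mimic, and has a match of the mix and one of the control mimic.

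Translation factors were higher in 18 and lower in 5 of 44 cases (8 and 3 without the block, 18 and 6 without replicate 1). Eif4g2, a scaffold of cap-independent initiation, and Eif5, the GTPase-activating factor of start codon selection, rose by 0.38 and 0.33 on the log2 scale. Eif2b2, a subunit of the exchange factor that recharges eIF2, fell to 59.6, 66.7 and 64.3 TPM with the mix, against 89.8, 98.9 and 96.5 TPM with the control mimic. The eIF3 subunits Eif3i and Eif3l fell, with log2 fold changes of −0.52 and −0.37. None of the 5 lower translation factors has a mix match, against 35.9% of all lower genes. In the MYC and MAX network 5 of 17 were lower and 2 higher (2 and 2 without the block, 6 and 2 without replicate 1).

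TGF-beta and BMP signalling had the clearest lean among the signalling pathways that act through transcription factors, with 19 of 38 lower and 5 higher (11 and 1 without the block, 18 and 6 without replicate 1) and a median of −0.13 ± 0.03. Bmpr2 (ENSMUSG00000067336, chr1:59763400-59879014, plus strand, mm10), the type II BMP receptor with 3 mix matches and 2 of the control mimic, stood at 18.4, 19.2 and 19.5 TPM with the mix and at 30.9, 29.4 and 28.3 TPM with the control mimic, a log2 fold change of −0.62 ± 0.04 (edgeR adjusted p = 8.66e-08). Tgfbr1, the type I TGF-beta receptor with 2 mix matches, stood at 40.1, 45.8 and 47.7 TPM with the mix and at 59.3, 62.0 and 63.0 TPM with the control mimic. Acvr2a, a type II activin receptor with 3 mix matches, and Skil, a corepressor of SMAD proteins, fell, with log2 fold changes of −0.33 and −0.39. The transducer Smad5 also fell (−0.66). Not every receptor of the pathway moved this way: the type I BMP receptor Bmpr1a rose, with a log2 fold change of 0.18, as did the co-receptor Tgfbr3, with 0.67, both losing their call without the block (edgeR adjusted p = 0.133 and 0.0616), and Acvr1, Acvr2b and Bmpr1b were not called, at −0.03, −0.01 and 0.26. The secreted activin antagonist Fst stood higher, at 13.5, 12.7 and 14.3 TPM with the mix against 8.81, 9.78 and 10.3 TPM with the control mimic. Of the 19 lower genes 9 have a mix match, against 35.9% of all lower genes.

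In the Hippo pathway and TAO kinases 9 of 30 were lower and 2 higher (7 and 0 without the block, 10 and 0 without replicate 1). Mob1a (ENSMUSG00000043131, chr6:83326016-83343776, plus strand, mm10), the coactivator of LATS kinases, stood at 56.5, 64.7 and 64.0 TPM with the mix and at 109, 118 and 111 TPM with the control mimic, a log2 fold change of −0.85 ± 0.04 (edgeR adjusted p = 2.81e-09), and has no mix match in its UTR. Vgll4, a cofactor that competes with YAP for TEAD factors, stood at 14.8, 14.5 and 15.3 TPM with the mix and at 21.1, 22.1 and 23.2 TPM with the control mimic, and the kinase Tnik fell by 0.57 on the log2 scale. For the JNK and p38 stress kinases 12 of 36 were lower and 9 higher (7 and 1 without the block, 13 and 8 without replicate 1). Dusp16, a phosphatase that inactivates JNK, stood at 10.3, 9.10 and 10.2 TPM with the mix and at 22.4, 22.1 and 20.8 TPM with the control mimic. Mapk8, which encodes JNK1, and the kinase Map3k11 above it fell, with log2 fold changes of −0.49 and −0.64. Here the kinases and their phosphatase both stood lower.

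Other signalling lists showed no lean of this kind. In the WNT pathway 8 of 43 were lower and 9 higher (5 and 2 without the block, 9 and 7 without replicate 1): Apc, the scaffold that turns over beta-catenin, with 3 mix matches, fell by 0.34, and Dvl3, a dishevelled protein with a control-mimic match, rose to 33.1, 34.7 and 37.2 TPM with the mix, against 23.4, 24.2 and 22.99 TPM with the control mimic. The NOTCH pathway had 10 of 40 lower and 9 higher (3 and 3 without the block, 10 and 8 without replicate 1), with Mib2, a ubiquitin ligase that activates NOTCH ligands, and Jag2, a ligand, higher by 0.48 and 0.38 on the log2 scale. Hedgehog genes had 2 of 12 lower and 3 higher (1 and 1 without the block, 2 and 4 without replicate 1). For cAMP and PKA signalling 11 of 34 were lower and 9 higher (3 and 2 without the block, 11 and 10 without replicate 1), with log2 fold changes of −0.46 for the adenylyl cyclase Adcy6 and 0.34 for the PKA regulatory subunit Prkar1b. Calcium signalling had 7 of 40 lower and 8 higher (2 and 2 without the block, 8 and 6 without replicate 1).

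Cholesterol genes were the metabolic list with the most falls: 16 of 30 were lower and 1 higher, but 3 and 1 without the block and 17 and 1 without replicate 1, with a median of −0.14 ± 0.06. The counts without the block lay near the shares over all genes, 7.88% lower and 5.01% higher. Abca1, the exporter of cholesterol to apolipoproteins, with 2 mix matches, stood at 5.46, 6.18 and 6.78 TPM with the mix and at 10.6, 12.8 and 12.2 TPM with the control mimic. Sc5d, a late enzyme of the synthesis pathway, stood at 13.3, 11.5 and 12.4 TPM with the mix and at 20.4, 18.7 and 17.9 TPM with the control mimic. The higher gene was Insig1, the protein that retains the SREBP activator in the endoplasmic reticulum, with 2 control-mimic matches, at 115, 91.8 and 101 TPM with the mix against 77.0, 70.8 and 73.4 TPM with the control mimic.

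Glycolysis and hypoxia genes depended on replicate 1. With the block 5 of 36 were lower and 8 higher, without it 1 and 0, and without replicate 1 the counts turned to 16 lower and 4 higher. The list medians by pair were 0.35, −0.10 and −0.06. Bnip3, a hypoxia-induced mitophagy receptor, stood at 161, 272 and 229 TPM with the mix and at 101, 328 and 254 TPM with the control mimic, low in both libraries of replicate 1. Eno2, the neuronal enolase, stood at 91.7, 131 and 114 TPM with the mix and at 46.4, 126 and 97.8 TPM with the control mimic, and was called higher with the block (log2 fold change 0.41) but not without it (edgeR adjusted p = 0.552). The median log2 difference of replicate 1 from replicates 2 and 3 was −0.34 for this list and 0.01 over all tested genes. Other lists also differed: −0.27 for the unfolded protein response, 0.26 for cholesterol, 0.18 for sympathoadrenal identity and −0.18 for interferon response. The part of this axis in the mix effects of other lists was not tested beyond the counts without replicate 1 given throughout. Oxidative phosphorylation genes, by comparison, had 8 of 71 lower and 12 higher (4 and 3 without the block, 8 and 19 without replicate 1).

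Among stress and death genes the unfolded protein response was mixed, and the other lists held more lower than higher genes, though the ATF4 list median was 0.01. In the unfolded protein response 13 of 36 were lower and 11 higher (5 and 3 without the block, 13 and 15 without replicate 1), and in the ATF4 response 12 of 38 were lower and 6 higher (8 and 0 without the block, 12 and 7 without replicate 1). Of 26 p53 targets 8 were lower and 3 higher (3 and 2 without the block, 9 and 4 without replicate 1). In the BCL2 family 6 of 16 were lower and 2 higher (3 and 0 without the block, 9 and 3 without replicate 1), with a median of −0.16 ± 0.09. The pro-death members Bok and Bak1 fell, with log2 fold changes of −0.38 and −0.37, Bok standing at 107, 109 and 103 TPM with the mix and at 145, 139 and 137 TPM with the control mimic. The survival protein Mcl1 rose, with a log2 fold change of 0.17, and lost its call without the block (edgeR adjusted p = 0.0869). Among Argonautes, TNRC6 proteins and microRNA processing factors 17 of 40 were lower and 6 higher (4 and 2 without the block, 17 and 7 without replicate 1). This lean was small without the block, near the 7.88% lower and 5.01% higher over all genes. Ago2, which cleaves perfectly paired targets, went against this lean. It rose to 138, 140 and 138 TPM with the mix, against 116, 117 and 115 TPM with the control mimic. The Argonaute Ago1 was lower, with a log2 effect of −0.83 in the fit of all 18 libraries described below.

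Interferon response genes were higher in 14 and lower in 1 of 29 cases with the mix (3 and 1 without the block, 12 and 1 without replicate 1), with the highest list median, 0.29 ± 0.17, and a spread between pairs of 0.11 to 0.44. Levels were low for most: Ifit1, an antiviral RNA-binding protein, stood at 7.13, 8.76 and 7.66 TPM with the mix and at 2.73, 6.08 and 4.84 TPM with the control mimic, and lost its call without the block (edgeR adjusted p = 0.0725). Ifnb1, interferon beta itself, stood at 1 TPM or less in all 6 libraries. Bst2, the membrane tether of budding virions, stood at 101, 102 and 106 TPM with the mix and at 80.1, 85.0 and 92.0 TPM with the control mimic. The member that fell, Ifit2, has 3 mix matches and stood at 1.26, 1.54 TPM and at most 1 TPM with the mix and at 2.05, 2.44 and 2.07 TPM with the control mimic.

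**Figure D4:**
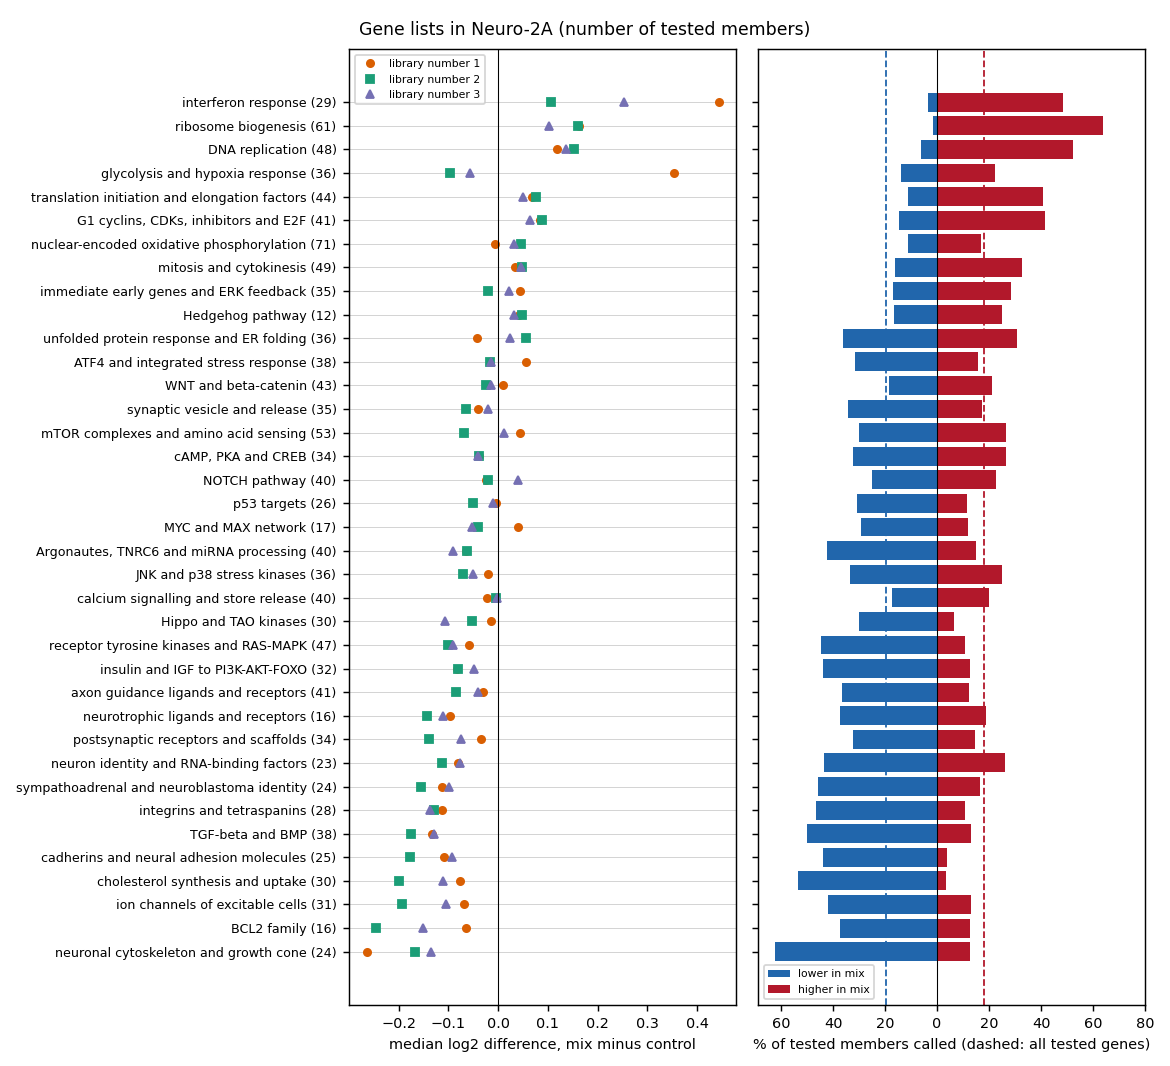
Left, median log2 difference, mix minus control, of each gene list in each of the 3 replicate pairs. Right, percentage of tested members called lower (to the left) and higher (to the right) with the replicate block, dashed lines marking 19.5% and 18.2%, the shares over all tested genes. Lists run down the page by the median of the fit, from interferon response, ribosome biogenesis and DNA replication to neuronal cytoskeleton and growth cone, whose pair 1 lies at −0.26; in pair 2 the BCL2 family lies lower, at −0.25 against −0.17. Marker lists of other cell types are not drawn, and in the glycolysis and hypoxia list pair 1 lies apart at 0.35.

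The marker lists of other cell types held few tested genes. Summed over all its genes the astrocyte list stood at 39.1 to 42.5 TPM with the mix and at 44.0 to 49.9 TPM with the control mimic, and the microglial list at 6.86 to 7.50 TPM with the mix and 6.31 to 6.95 TPM with the control mimic. The fibroblast and mesenchymal list stood at 922 to 1050 TPM with the mix and at 1008 to 1132 TPM with the control mimic, with 4 of 9 tested genes lower and none higher. The Schwann and neural crest list, most of whose summed level came from the p75 neurotrophin receptor Ngfr and the myelin protein gene Pmp22, stood at 335 to 441 TPM with the mix and at 464 to 570 TPM with the control mimic. Ngfr has 1 mix match and stood at 174, 209 and 222 TPM with the mix and at 239, 267 and 279 TPM with the control mimic, and lost its call without the block (edgeR adjusted p = 0.0516). Pmp22 stood at 155, 213 and 212 TPM with the mix and at 219, 290.0 and 284 TPM with the control mimic, and also lost its call without the block (edgeR adjusted p = 0.0995). These were the 2 genes called lower of the 3 tested on this list. In bulk RNA fewer cells of a type and less RNA per cell cannot be told apart, and the part of these lists in the results was not tested.

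The mix effect in Neuro-2A was set against the effects of the same mix in astrocytes and in BV-2 cells by an interaction test in a fit of all 18 libraries; both comparisons share the Neuro-2A libraries. Of 20308 genes tested, the Neuro-2A effect was lower than the astrocyte effect for 5.18% and higher for 3.57%, and lower than the BV-2 effect for 3.6% and higher for 3.28%. In the neuronal cytoskeleton list 7 of 24 effects were lower in Neuro-2A than in astrocytes and 1 higher (5 and 1 without the block, 5 and 1 without replicate 1). Against BV-2 cells fewer differed, with 3 of the 24 lower and 1 higher (2 and 1 without the block, 2 and 1 without replicate 1). The Tubb3 effect was −0.47 on the log2 scale in Neuro-2A and 0.21 in astrocytes, a difference of −0.68 ± 0.09 (edgeR adjusted p = 0.000118). The Map1b effect was −0.47 in Neuro-2A, −0.16 in astrocytes and 0.04 in BV-2 cells, and both differences passed the test (edgeR adjusted p = 0.00258 and 0.000146).

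The division and growth lists separated the cell types in part. Mitosis effects were lower in Neuro-2A than in astrocytes for 31 of 49 genes and higher for none (19 and 0 without the block, 20 and 0 without replicate 1): the Ccnb1 effect was 0.74 in Neuro-2A, 1.39 in astrocytes and 0.97 in BV-2 cells. Against BV-2 cells 7 of the 49 were lower and none higher (1 and 0 without the block or without replicate 1). For ribosome biogenesis 17 of 61 effects were higher in Neuro-2A than in BV-2 cells and none lower (7 and 0 without the block, 6 and 0 without replicate 1), whereas against astrocytes 3 were lower and none higher (2 and 0 without the block, 1 and 0 without replicate 1). The Nolc1 effect was 0.40 in Neuro-2A, 0.57 in astrocytes and −0.02 in BV-2 cells, of which the difference from BV-2 passed the test (edgeR adjusted p = 0.00458) and that from astrocytes did not (edgeR adjusted p = 0.312). Cholesterol effects were higher in Neuro-2A than in astrocytes for 12 of 30 genes and lower for 3 (5 and 1 without the block, 8 and 1 without replicate 1), but lower than in BV-2 cells for 12 and higher for none (5 and 0 without the block, 9 and 0 without replicate 1). The effect on Hmgcs1, an early enzyme of the synthesis pathway, was −0.06 in Neuro-2A, −0.57 in astrocytes and 0.43 in BV-2 cells. Interferon effects were higher in Neuro-2A than in astrocytes for 20 of 29 genes and lower for none (18 and 0 without the block, 15 and 0 without replicate 1): the effect on Parp14, an interferon-induced ADP-ribosyltransferase, was 1.02 in Neuro-2A, −0.74 in astrocytes and 0.18 in BV-2 cells. The median difference of the list from astrocytes was 0.81, larger than its median change of 0.29 within Neuro-2A. Parp14 was barely detected in Neuro-2A, at 1.38, 1.85 and 1.67 TPM with the mix. With the control mimic it stood at 1.14 TPM in replicate 2 and at 1 TPM or less in replicates 1 and 3. Against BV-2 cells 4 of the 29 interferon effects were higher and none lower (2 and 0 without the block, 0 and 0 without replicate 1).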

How the data were processed

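Poly(A) RNA was sequenced from 3 libraries per arm, per the labels' protocols. The authors deposited expected counts per gene and log2 TPM in 1 table of 53342 genes, in which TPM of 1 or less are set to 0 on the log2 scale. The submitters' processing notes name Trimmomatic 0.39, STAR 2.7.10b and mm10; for the counting tool and its use of strand nothing is stated there. Counts were rounded and tested with edgeR 4.0.16 (R 4.3.3; quasi-likelihood, TMM, filterByExpr with a minimum count of 10, Benjamini-Hochberg adjustment), with the replicate number as a block. The numbers were taken to pair the libraries because deviations from the arm means correlated at r = 0.587, 0.395 and 0.262 for same-numbered libraries. Mix replicate 2 with control replicate 3 gave r = 0.245, and mix replicate 3 with control replicate 2 gave 0.169. These values set replicate 1 apart, but hardly show that replicates 2 and 3 pair by number. A block of replicate 1 against the other replicates called 2807 lower and 2519 higher genes. The interaction fit held 6 group means and the Neuro-2A block. Fits were tested on simulated data. Alternatives used limma 3.58.1 and DESeq2 1.42.0. The 3′ UTR was the longest of each gene in GENCODE M21, of at least 20 nucleotides, and a match is a full heptamer on the transcript strand.

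The members and gene lists were chosen with earlier results of these data known. Genes are named by rule: the 10 largest falls and rises, up to 5 called members with the smallest adjusted p and the 2 most abundant members of each list, 3 genes per microRNA with a single 8mer, and 3 genes each way whose effect differs from both other cell types. Acvr1, Acvr2a, Acvr2b, Ago1, Axl, Bmpr1a, Bmpr1b, Cdt1, Ddit4, Egfr, Eno2, Fst, Hmgcs1, Ifit2, Imp4, Rb1, Rictor, Spry1, Stmn3, Syp, Tgfbr3 and Vamp2 were chosen after their values were seen. The heptamers of miR-140-5p and cel-miR-67 came from the ranking and were matched to these names from general knowledge of their seeds. Tubulin genes and other close paralogues may share reads, and their split is uncertain. Some genes and 1 gene list are not reported here.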

Additional observations from a re-analysis of the deposited data

Results flagged for a closer look

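For 6 genes the mix effect in Neuro-2A differed from that in other cell types by an interaction test over all 18 libraries. In all, 350 of 20308 genes tested differed from both other cell types in the same direction. The 6 were picked for large differences, so their size follows from that choice. Effects are log2 fold changes, mix over control.

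The effect on S100a4, a calcium-binding protein, was lower in Neuro-2A than in astrocytes by −0.72 and than in BV-2 cells by −0.78, at 8.54, 4.46 and 6.05 TPM in mix and 11.7, 9.70 and 9.88 TPM in control Neuro-2A libraries; neither difference passed without replicate 2. Ak3, a mitochondrial adenylate kinase with 1 mix match, fell in all 3 cell types, with differences of −0.69 from astrocytes and −0.78 from BV-2 cells. The Mgll effect differed from that in astrocytes by −0.70, and this call was lost without the block; in BV-2 cells the gene stood at 1 TPM or less. The effect on Batf3, a transcription factor of the AP-1 family, was higher in Neuro-2A by 1.05 and 1.08 than in astrocytes and in BV-2 cells, at 4.71, 6.39 and 6.10 TPM in mix and 3.96, 3.14 and 2.86 TPM in control Neuro-2A libraries, and neither difference passed without replicate 2 or 3. Oasl1, an interferon-induced gene, differed by 1.96 from astrocytes and by 0.79 from BV-2 cells; its effects were 0.67 in Neuro-2A, −1.29 in astrocytes and −0.12 in BV-2 cells, and the difference from BV-2 cells did not pass without replicate 1, without replicate 2 or without the block. Gdf15, a stress-induced cytokine, differed by 1.22 and 0.59, with effects of 0.10 in Neuro-2A, −1.12 in astrocytes and −0.49 in BV-2 cells, and the difference from BV-2 cells did not pass without replicate 1 or without the block.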

How the results depend on the processing

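The number of calls depended on the replicate block and on the test used. Against 3152 lower and 2949 higher genes with the block, the fit with no replicate block called 1273 and 810, replicates 2 and 3 alone with no block 2069 and 1594, and DESeq2 with the block 1848 and 1405. Leaving out 1 replicate number with the block kept gave 2414 to 3050 lower and 2010 to 2892 higher genes, and leaving out 1 library without the block gave 577 to 1359 lower and 293 to 909 higher genes. RLE scaling, no filter on low counts, a block of replicate 1 against the other two, and limma on log2(TPM + 1) or log2(TPM + 0.1) stayed within 1.5 times. Of 88 gene list counts, 74 came out weaker without the block, 43 in DESeq2 with the block and 20 in each limma fit. Effects that differed from astrocytes numbered 1777 with the block, 951 without it and 1064 to 1284 with 1 replicate number left out, and those that differed from BV-2 cells 1398, 713 and 667 to 874. Of 125 named genes, 11 lost their call without the block, 4 in DESeq2 with it, and 10 to 56 with 1 library left out and no block, the most without mix replicate 3. The direction of Bnip3, which was not called with all 3 replicates, changed without replicate 1, to −0.20 on the log2 scale, and its values with single libraries or numbers left out ran from −0.38 to 0.33; the glycolysis list turned with it, as given above. With 3 libraries per arm of 20.9 to 23.6 M counts each, the biological coefficient of variation was 3.17% with the block and 8.64% without it, which limits what the fit without the block can call.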
